A study of Mus musculus with 12 samples.

Results

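The IL-12 family of cytokines is built from 5 subunit genes, Il12a, Il12b, Il23a, Il27 and Ebi3, and their RNA was followed here in conventional dendritic cells of type 1 (cDC1), which take up antigen and cross-present it to CD8 T cells. The members were chosen by name, and all 5 were measured, each by 1 probe set, among 19938 genes with a probe set of a single symbol. RNA was measured on 12 Affymetrix arrays in 4 groups of 3. The groups were migratory cDC1 of skin-draining lymph nodes (SDLN) from Xcr1Cre/+ CD40fl/fl mice, the same cells from Xcr1+/+ CD40fl/fl mice, and splenic cDC1 from each of the same genotypes. All mice were naive, on the C57BL/6 background, with loxP-flanked Cd40 on both alleles, so the genotypes differed by 1 Xcr1-Cre allele, which is driven in XCR1-expressing cells and is meant to delete Cd40 there. Arrays of Xcr1Cre/+ mice are called Cre below and those of Xcr1+/+ mice control. Cells were sorted as B220 negative, Sirpa negative, XCR1 positive and high for MHC class II, with intermediate CD11c in lymph node and high CD11c in spleen. The labels give no ages and do not say whether arrays are separate animals, so the p-values speak only of the spread from array to array, which may be technical.

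Each cytokine of this family pairs an alpha chain with a beta chain that resembles a cytokine receptor. IL-12, the inducer of interferon-gamma in T and NK cells, joins the alpha chain p35 (Il12a) to the beta chain p40 (Il12b), and IL-23, which maintains IL-17-producing T cells, joins p19 (Il23a) to the same p40. IL-27, which restrains as well as directs T cell responses, joins p28 (Il27) to EBI3 (Ebi3), and IL-35 joins p35 to EBI3. Dendritic cells of the cDC1 type are known as a main source of IL-12 in mice, and CD40 ligation by helper T cells together with microbial signals is known to raise it.

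Values are intensities after RMA, the array normalization used by the submitters, and the scale of each probe set is its own, so levels are compared only within a gene. Median intensities were 66.1 to 74.4 per array, and a background of 22.2 was taken from the brightest of 3 Y-linked genes. On each array 85.8% to 90.3% of all genes were above background. All 5 measured markers of B cells and all 5 of T cells were above it in every group. Being above background thus does not tell cell types apart. The 10 marker genes of cDC1 were above background in every group. Their summed intensity was 11900 to 15100 in SDLN and 27100 to 37000 in spleen, and 6 of the 10 were called lower in SDLN under each label, with 2 called higher on Cre and 1 on control arrays. Xcr1 itself averaged 242 on SDLN Cre and 248 on SDLN control arrays, against 2820 on spleen Cre and 3240 on spleen control arrays. Cd40, the targeted gene, did not follow the genotype labels. It was 1430, 1390 and 3360 on SDLN Cre and 2140, 2780 and 1540 on SDLN control arrays for replicates 1, 2 and 3, and 365, 214 and 569 on spleen Cre against 572, 525 and 309 on spleen control arrays. It was thus lower on the Cre array for replicates 1 and 2 and higher for replicate 3 in both tissues. Where its probes lie relative to the deleted exons was not analysed here. Genotype directions below therefore rest on the labels, and Cre and control stand for arrays so labelled. In such bulk samples, fewer cells of a type and less RNA per cell cannot be told apart.

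Il27 was higher in migratory lymph node cDC1 than in splenic cDC1 under both labels, Il12b on the Cre arrays and, with the replicate block described below, on the control arrays, and Ebi3 on the control arrays. Il12a and Il23a lay near background in both tissues. No subunit passed between the genotype labels after adjustment over all genes. Markers of other cells also differed between tissues. Those of macrophages and monocytes summed to 321 to 503 in SDLN and 2110 to 3920 in spleen, where Cd14 and Lyz2 were the brightest of the list. Of the 6 measured, 4 were called lower in SDLN on Cre arrays and 3 on control arrays, and 0 higher. Markers of T cells summed to 484 to 1190 in SDLN and 365 to 496 in spleen, with a small overlap. Those of plasmacytoid dendritic cells overlapped more, at 2650 to 3570 in SDLN and 2070 to 2910 in spleen. Bst2 was the brightest of that list, and its members went both ways. Under each label Ccr9 was called lower in SDLN (log2 difference -2.60 on Cre and -2.67 on control arrays) and Tcf4 higher (0.49 and 0.85). NK cell markers summed to 301 to 411 in SDLN and 634 to 903 in spleen. B cell markers summed to 197 to 262 in SDLN and 339 to 459 in spleen. Of the NK cell markers 1 of 5 was called under each label, lower in SDLN, as was 1 of 5 B cell markers. The sums of cDC2, of Langerhans cells and keratinocytes and of neutrophils overlapped between tissues. In the list of Langerhans cells and keratinocytes, however, members went both ways. On Cre arrays 3 of 5 were called higher in SDLN and 1 lower, and on control arrays 2 higher and 1 lower. Epcam was higher by 1.27 on Cre and 1.04 on control arrays, and Krt14 by 0.76 and 0.57. Cd207, the brightest of that list, was at -1.34 under each label. The part of these other cells in the subunit values was not tested.

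Il12b is described first, since it is the beta chain of both IL-12 and IL-23. The 250 bases before the transcription start are shown for Il12b, with the largest tissue difference on Cre arrays, and for Ebi3, with the widest spread among SDLN arrays. Capitals mark matches to the motifs searched. Windows are from RefSeq on build GRCm38.p6, on the plus strand.
Il12b, chr11:44399813-44400062: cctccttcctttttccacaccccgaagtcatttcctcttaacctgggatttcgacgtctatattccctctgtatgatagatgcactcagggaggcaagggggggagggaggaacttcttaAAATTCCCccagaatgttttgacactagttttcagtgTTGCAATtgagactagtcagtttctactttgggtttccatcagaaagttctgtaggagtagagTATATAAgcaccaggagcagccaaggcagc
Ebi3, chr17:55952373-55952622: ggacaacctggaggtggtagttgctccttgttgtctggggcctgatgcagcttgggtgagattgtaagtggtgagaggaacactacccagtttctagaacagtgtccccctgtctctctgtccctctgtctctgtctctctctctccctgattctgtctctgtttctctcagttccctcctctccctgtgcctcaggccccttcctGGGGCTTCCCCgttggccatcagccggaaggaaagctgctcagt
Both strands were searched for an NF-kB motif of GGG and CC with any 5 bases between them, the NF-kB half-site GGGAATTT, the C/EBP site TTGCAAT, the AP-1 site TGANTCA, an interferon regulatory factor motif of 2 GAAA runs with any 2 bases between them, and the TATA box TATANAA. The Il12b window held the NF-kB half-site on the opposite strand at 130 to 123 bases before the start, the C/EBP letters at 93 to 87 bases and the TATA letters at 30 to 24 bases. Of 32851 RefSeq windows of this length, 0.843% held that half-site, 1.96% the C/EBP letters and 10.4% the TATA letters. The motifs were picked by hand, so these shares do not measure how unlikely the matches were. The Ebi3 window held the full NF-kB motif on both strands, as overlapping matches between 44 and 34 bases before the start. That motif was in 45.8% of windows. The AP-1 letters, in 6.75% of windows, and the interferon regulatory factor letters, in 2.98%, were in neither. For Il12a the table gives windows at 2 starts. One held the C/EBP letters, 156 to 150 bases before the start, and the other the full NF-kB motif, between 113 and 103 bases before the start. A match describes letters in a window and not a site in use.

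The p40 gene Il12b rose in migratory cDC1. On the arrays labelled Cre its intensity was 5100, 8220 and 6830 in SDLN and 1870, 3070 and 3780 in spleen for replicates 1, 2 and 3. All 3 SDLN arrays lay above all 3 spleen arrays. The log2 difference was 1.24 (SE 0.27, n = 3 per group, a 2.36-fold rise; limma adjusted p = 0.0031). On the arrays labelled control it was 5520, 7850 and 8780 in SDLN and 3140, 5070 and 4890 in spleen, again with no overlap between tissues. Of all genes, 22.4% were higher in SDLN without overlap on Cre arrays and 19% on control arrays. The difference on control arrays was 0.76 (SE 0.27, n = 3 per group, 1.70-fold) and did not pass (limma adjusted p = 0.055). Same-numbered pairs had ratios of 1.75, 1.55 and 1.79, which the lack of overlap already places above 1.

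The spread of Il12b within groups followed the replicate number. The replicate 1 array was the lowest of its group in all 4 groups, with deviations from the group mean of -0.57 to -0.37 on the log2 scale. The replicate 2 and 3 arrays lay 0.05 to 0.44 above their group means. Of all genes, 14.2% also had their lowest value on replicate 1 in every group, and 2.55% deviated as far as Il12b or farther on average. With the replicate number as a block in the fit, the SE of Il12b fell to 0.10. The tissue difference then passed on the control arrays (limma adjusted p = 1.98e-05) as well as on the Cre arrays (limma adjusted p = 1.74e-07). What the replicate number stands for is not given in the labels. In each group the replicate 1 array also had the highest median intensity (70.5 to 74.4) and the lowest maximum intensity. It also had the largest share of genes above background (88.3% to 90.3%). The part of these array differences in the Il12b spread was not tested. With all replicate 2 arrays left out, the difference of Il12b on Cre arrays was 1.15 and no longer passed (limma adjusted p = 0.0562). On control arrays Il12b passed without SDLN control replicate 1 (limma adjusted p = 0.026), SDLN Cre replicate 1 (0.0446), spleen Cre replicate 1 (0.0249) or spleen Cre replicate 3 (0.0454). It also passed without all replicate 1 arrays (limma adjusted p = 0.000142), with array weights (6e-04), with only the arrays compared (0.0321) and with the filter on dim genes (0.0498). The difference was 0.54 without spleen control replicate 1 (limma adjusted p = 0.216) and 0.62 without SDLN control replicate 3 (0.192). It was 0.72 without all replicate 3 arrays (limma adjusted p = 0.26). Of 27 alternatives, 12 gave a call and 15 did not. Single Cre arrays enter this comparison only through the shared spread.

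**Figure D1:**
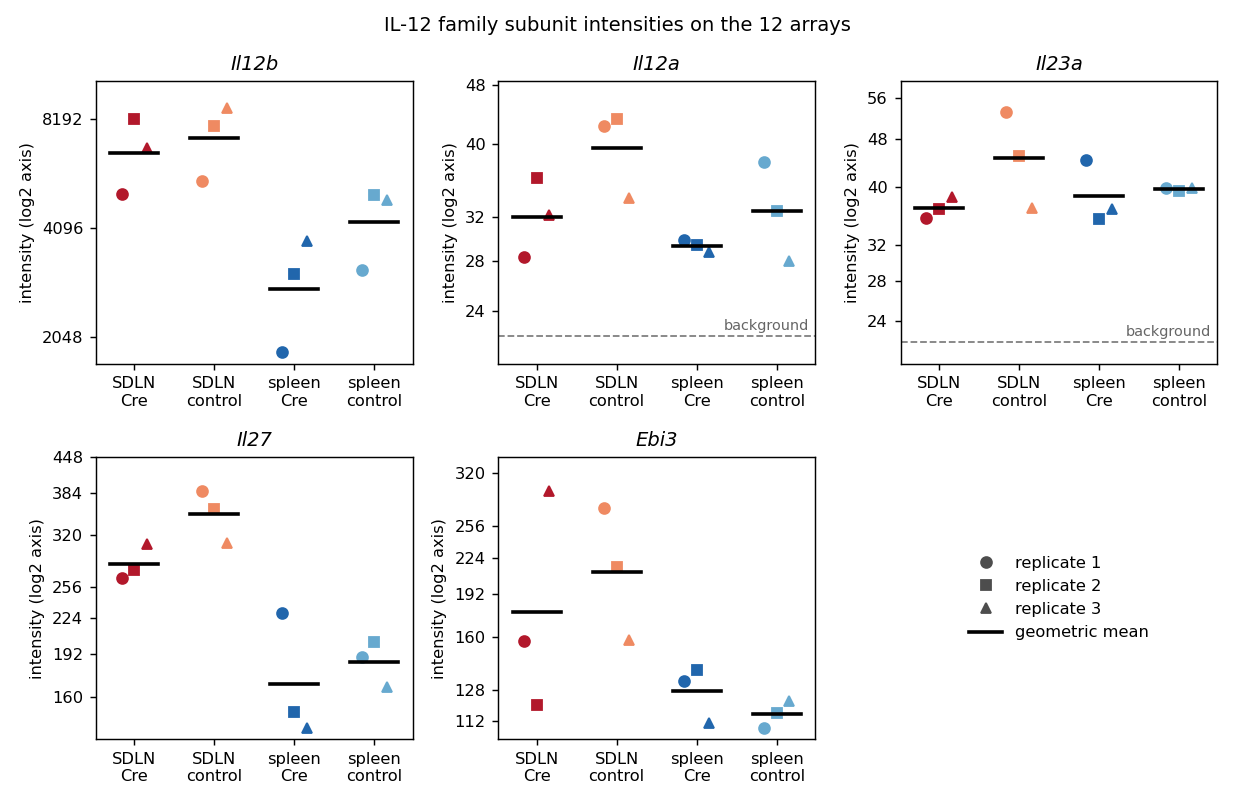
Intensity (log2 axis) of each subunit on the 12 arrays, with Cre left of control and SDLN left of spleen; symbols give the replicate number, bars the geometric mean of 3 arrays, and the dashed line the background of 22.2. Il12b and Il27 lie higher on SDLN than on spleen arrays of the same label with no overlap, and Il12a and Il23a lie between 28.0 and 53.2, close to background.

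**Figure D2:**
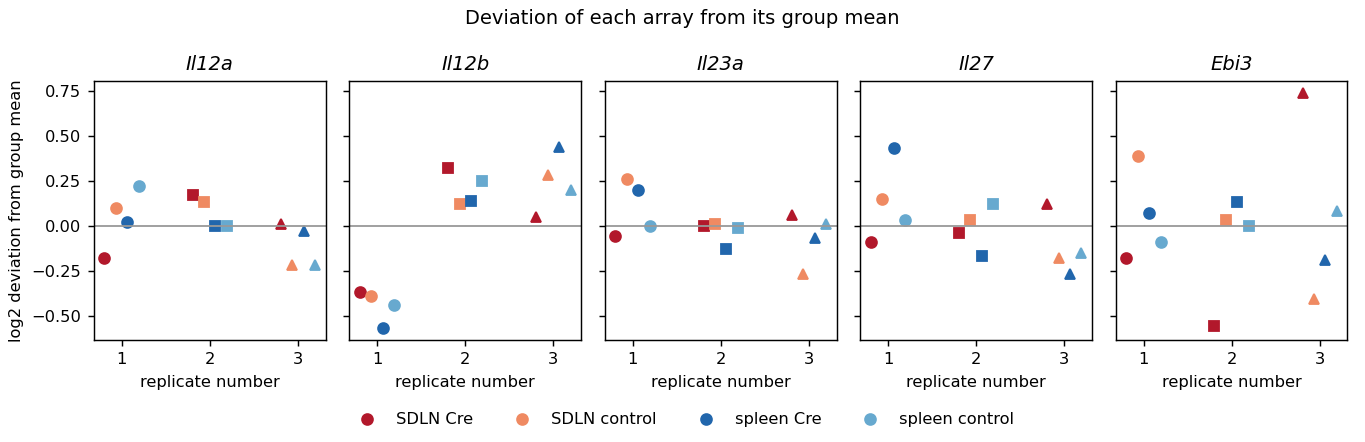
Log2 deviation of every array from its group mean, by replicate number, with colours for the 4 groups. For Il12b the 4 replicate 1 arrays lie at -0.57 to -0.37 and the other 8 at 0.05 to 0.44; in none of the other subunits do the 4 replicate 1 arrays all lie on one side of 0 with the others opposite.

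Il27, which encodes the p28 chain of IL-27, rose in migratory cDC1 under both labels. On Cre arrays it was 267, 276 and 308 in SDLN and 229, 150 and 140 in spleen. The log2 difference was 0.74 (SE 0.18, n = 3 per group, 1.67-fold; limma adjusted p = 0.00604). On control arrays it was 388, 358 and 310 in SDLN, against 190, 202 and 167 in spleen. The log2 difference there was 0.92 (SE 0.18, n = 3 per group, 1.89-fold; limma adjusted p = 0.00136). The tissues did not overlap under either label, although the replicate 1 pair of Cre arrays had a ratio of only 1.17, against 1.83 and 2.19 for replicates 2 and 3. On the Cre arrays the Il27 difference was 0.68 without all replicate 2 arrays and 0.55 without all replicate 3 arrays, and passed in neither (limma adjusted p = 0.132 and 0.172).

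Ebi3, the beta chain that completes IL-27, rose on control arrays and varied widely on SDLN Cre arrays. On control arrays it was 276, 215 and 158 in SDLN, against 109, 116 and 122 in spleen. These did not overlap, and the log2 difference was 0.87 (SE 0.27, n = 3 per group, 1.83-fold; limma adjusted p = 0.0293). On Cre arrays it was 157, 120 and 297 in SDLN, against 133, 139 and 111 in spleen. These overlapped, and the difference was 0.49 (SE 0.27, n = 3 per group; limma adjusted p = 0.22). The control call was lost without spleen control replicate 1, 2 or 3 (limma adjusted p = 0.0782, 0.0734 and 0.0598) and without SDLN control replicate 1 or 2 (0.118 and 0.0758). On the Cre arrays the difference was 0.77 and passed without SDLN Cre replicate 2 (limma adjusted p = 0.0487), and was 0.84 and passed with array weights (0.00708). It was 0.12 without SDLN Cre replicate 3 (limma adjusted p = 0.736) and 0.02 without all replicate 3 arrays (0.969).

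The alpha chains of IL-12 and IL-23 were dim and did not pass between tissues. Il12a, the p35 gene, was 28.3, 36.1 and 32.2 in SDLN and 29.8, 29.4 and 28.8 in spleen on Cre arrays, with a log2 difference of 0.13 (SE 0.13, n = 3 per group; limma adjusted p = 0.5). On control arrays it was 42.3, 43.2 and 33.9 in SDLN, against 37.9, 32.6 and 28.0 in spleen, with a difference of 0.28 (SE 0.13, n = 3 per group; limma adjusted p = 0.138). The Il12a difference on control arrays was 0.39 and passed without spleen control replicate 1 or SDLN control replicate 3 (limma adjusted p = 0.0448 and 0.0443). Il23a, the p19 gene, was 35.5, 36.8 and 38.5 in SDLN and 44.3, 35.4 and 36.7 in spleen on Cre arrays, with a difference of -0.06 (SE 0.12, n = 3 per group; limma adjusted p = 0.743). On control arrays Il23a was 53.2, 45.0 and 36.9 in SDLN, against 39.8, 39.4 and 39.8 in spleen, with a difference of 0.17 (SE 0.12, n = 3 per group; limma adjusted p = 0.419). Both genes overlapped between tissues under each label. Close to background, array intensities can understate differences, so small values for these genes do not show equal RNA.

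Counted together, 2 of 5 subunits rose in SDLN on Cre arrays (Il12b and Il27) and 2 of 5 on control arrays (Il27 and Ebi3), and 0 fell. Over all genes, 28.3% were called on Cre arrays (13.1% higher, 15.2% lower in SDLN) and 26.1% on control arrays (12.9% higher, 13.2% lower). The median log2 difference of the subunits was 0.49 on Cre arrays and 0.76 on control arrays, against 0.07 and 0.03 over all genes. With the replicate block the counts of subunits called were 2 on Cre and 3 on control arrays, against 41% and 36% of all genes. The difference between the tissue effects of the labels, which is the same contrast as the difference between the genotype effects of the tissues, passed for 0 of 5 subunits in limma, with and without the block. Of the subunits, 0 had an unadjusted p under 0.05 in that contrast, and 1, Il12b, had one with the block (0.0037; limma adjusted p = 0.838).

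**Figure D3:**
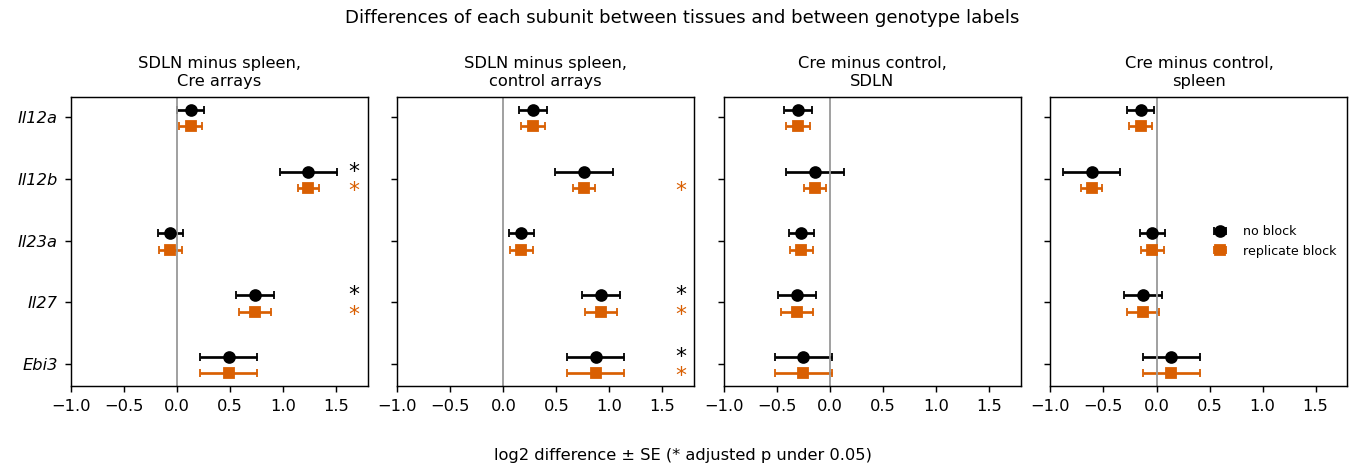
Log2 difference with SE for each subunit in 4 comparisons, without (black circles) and with (orange squares) the replicate number as a block; asterisks mark limma adjusted p under 0.05. Il12b and Il27 on Cre arrays and Il27 and Ebi3 on control arrays rose in SDLN, of the fits shown Il12b on control arrays passed in the one with the block, and no genotype difference passed.

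In order of level, the SDLN groups came before the spleen groups for Il12b, Il27 and Ebi3, with SDLN control highest. Il12b averaged 6590 on SDLN Cre, 7240 on SDLN control, 2790 on spleen Cre and 4270 on spleen control arrays (geometric means of 3). SDLN Cre and SDLN control overlapped, as did spleen Cre and spleen control, and the lowest SDLN Cre array, at 5100, was only just above the highest spleen control array, at 5070. Il27 averaged 283 on SDLN Cre, 351 on SDLN control, 169 on spleen Cre and 185 on spleen control arrays, where the spleen groups overlapped and the other neighbours did not. Ebi3 averaged 178 on SDLN Cre, 211 on SDLN control, 127 on spleen Cre and 115 on spleen control arrays, and in order of level (SDLN control, SDLN Cre, spleen Cre, spleen control) each neighbouring pair overlapped. For Il12a and Il23a all neighbours in the order overlapped, over group means of 29.3 to 39.6 and 36.9 to 44.5.

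Between the genotype labels no subunit passed in either tissue. In SDLN, limma called 0 of 5 subunits and 0 of 19938 genes (0%), with 402 genes at an unadjusted p under 0.05 and 1360 with the block. In spleen it called 0 of 5 and 0 of 19938 (0%), with 357 genes at an unadjusted p under 0.05 and 886 with the block. All 5 subunits had a negative difference in SDLN and 4 of 5 in spleen. Their medians were -0.27 in SDLN and -0.13 in spleen, against -0.01 over all genes in each. The comparisons across labels and across tissues share arrays, so these values are not independent of those above.

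In spleen, Il12b had 1870, 3070 and 3780 on Cre arrays, against 3140, 5070 and 4890 on control arrays. The groups overlapped through control replicate 1, which lay below Cre replicate 3. Within same-numbered pairs Cre was lower every time, with ratios of 0.596, 0.606 and 0.772. Of all genes, 17.1% were lower in all 3 spleen pairs. The difference was -0.61 (SE 0.27, n = 3 per group, 95% interval -1.2 to -0.03; limma adjusted p = 1), and with the block the SE was 0.10 (limma unadjusted p = 2.27e-05, adjusted p = 0.453). It was -0.73 with all replicate 3 arrays left out, whose Cd40 ran against the labels, and -0.33 without spleen Cre replicate 1. Over the alternatives its adjusted p ran from 0.104 to 1. In SDLN the Il12b pairs had ratios of 0.924, 1.05 and 0.779 and a difference of -0.14 (SE 0.27, n = 3 per group; limma adjusted p = 1).

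Genes of dendritic cell maturation and migration were also mostly lower on the spleen Cre arrays. Of 16 measured, 15, 15 and 14 were lower on the Cre array of pairs 1, 2 and 3, with median log2 differences of -0.31, -0.41 and -0.14. In SDLN the medians were -0.09, -0.06 and -0.02. Ccl22, a chemokine of mature dendritic cells, had the largest spleen difference of the 16. It averaged 441 on spleen Cre and 658 on spleen control arrays. Limma called 0 of the 16 in either tissue. The part of maturation in the Il12b values was not tested.

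Il27, Il12a and Il23a had their larger genotype differences in SDLN. Il27 had 267, 276 and 308 on SDLN Cre arrays and 388, 358 and 310 on SDLN control arrays, where the highest Cre array lay just under the lowest control array. Of all genes, 2.71% were lower without overlap in that comparison. The Il27 difference was -0.31 (SE 0.18, n = 3 per group; limma adjusted p = 1), with pair ratios of 0.688, 0.771 and 0.993. Il12a had pair ratios of 0.669, 0.837 and 0.949 in SDLN and a difference of -0.30 (SE 0.13, n = 3 per group; limma unadjusted p = 0.0312, adjusted p = 1). Both were lower in all 3 SDLN pairs, which for Il27 follows from the lack of overlap, as were 14.7% of all genes. Il23a had 0.666, 0.819 and 1.04 and a difference of -0.27 (SE 0.12, n = 3 per group; limma unadjusted p = 0.0461, adjusted p = 1). In these 3 genes the ratio was lowest in pair 1 and closest to 1 in pair 3. In spleen their differences were -0.13, -0.15 and -0.04, with limma adjusted p = 1 for each.

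Ebi3 went in opposite directions in different pairs of SDLN arrays. It was 157 and 120 on Cre replicates 1 and 2, against 276 and 215 on the control arrays of those numbers, which gives ratios of 0.57 and 0.56. For replicate 3 it was 297 on the Cre array and 158 on the control array, a ratio of 1.88. Cd40 had SDLN ratios of 0.668, 0.5 and 2.18 in the same pairs. Of 19938 genes, 10 (0.0502%) were lower by over 0.5 on the log2 scale in SDLN pairs 1 and 2 and higher by over 0.5 in pair 3, and Ebi3 and Cd40 were among them. That threshold was chosen after the values were seen. By sign alone, with no threshold, 14.6% of genes had this pattern in SDLN and 14.9% in spleen. In spleen the Ebi3 ratios were 1.22, 1.20 and 0.907, which is not the order of Cd40 there, at 0.638, 0.407 and 1.84. Over all SDLN arrays the Ebi3 difference was -0.25 (SE 0.27, n = 3 per group, 95% interval -0.83 to 0.34; limma adjusted p = 1). It was 0.04 without all replicate 1 arrays, 0.05 without all replicate 2 arrays and -0.82 without all replicate 3 arrays, the pair that ran the other way, so its sign rests on which pairs are kept.

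**Figure D4:**
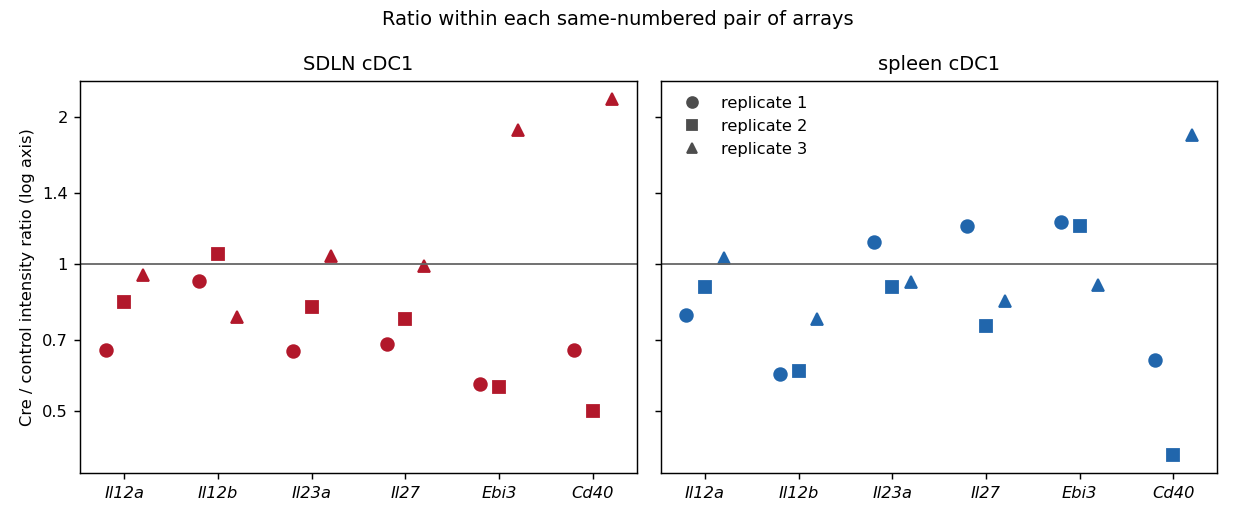
Ratio of the Cre to the control intensity (log axis) within each same-numbered pair, for the 5 subunits and Cd40, in SDLN and spleen. Il12b lies under 1 in all 3 spleen pairs, and Ebi3 and Cd40 in SDLN lie under 1 in pairs 1 and 2 and at 1.88 and 2.18 in pair 3.

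Averaged over both tissues, every subunit had a negative difference and none passed. The values were -0.38 for Il12b (SE 0.19), -0.23 for Il12a (SE 0.09), -0.22 for Il27 (SE 0.13), -0.16 for Il23a (SE 0.09) and -0.05 for Ebi3 (SE 0.19), each with limma adjusted p = 1 over 6 arrays per label. With the block the unadjusted limma p was 9.54e-05 for Il12b (adjusted p = 0.755) and 0.0117 for Il12a (adjusted p = 0.906). Limma called 0 of 19938 genes (0%) in this average, with 383 at an unadjusted p under 0.05.

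Receptors of the family changed in both directions between tissues. Of 6 measured receptor genes, 2 rose and 2 fell in SDLN under each label. Il23r, the IL-23-specific receptor chain, averaged 429 on SDLN Cre and 389 on SDLN control arrays, against 32.7 on spleen Cre and 34.4 on spleen control arrays. Its log2 difference was 3.72 on Cre arrays (SE 0.20; limma adjusted p = 1.25e-08) and 3.50 on control arrays (SE 0.20; limma adjusted p = 2.08e-08). Markers of T cells, some of which carry this receptor, also differed between tissues. Beside the sums given above, Cd3g averaged 241 on SDLN Cre and 266 on SDLN control arrays. In spleen it averaged 82.4 on Cre and 78.1 on control arrays. Cd4 went the other way, at 72.1 on SDLN Cre and 70.1 on SDLN control arrays, against 98.0 and 89.5 in spleen. Of 5 measured T cell markers, 4 were called higher and 1 lower in SDLN on Cre arrays. On control arrays 3 were called higher and 0 lower. The part of T cells in the Il23r values was not tested.

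Il27ra, the IL-27-specific receptor chain, was higher by 0.55 on Cre arrays (SE 0.12; limma adjusted p = 0.00367) and 0.37 on control arrays (SE 0.12; limma adjusted p = 0.0414). Il6st, which encodes gp130, the partner of that chain, was at -0.91 under each label (SE 0.17; limma adjusted p = 0.000939 on Cre and 0.000986 on control arrays). Il6ra, the IL-6 receptor chain, was at -2.11 under each label (SE 0.17). The IL-12 receptor chains did not pass. Il12rb1 was at 0.12 and Il12rb2 at 0.14 on Cre arrays, with 0.00 and 0.28 on control arrays.

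Of 6 measured genes of receptor signalling, 2 rose on Cre arrays, and 3 rose and 1 fell on control arrays. Stat4, the main transducer of IL-12, was higher by 1.93 on Cre arrays (SE 0.33; limma adjusted p = 0.000504) and 1.75 on control arrays (SE 0.33; limma adjusted p = 0.00113). Stat3, which serves IL-23 and IL-27, was higher by 0.80 and 0.90 (limma adjusted p = 0.00482 and 0.0021). The kinase Tyk2 was higher by 0.85 on Cre arrays, without passing (limma adjusted p = 0.0841), and by 1.08 on control arrays (limma adjusted p = 0.0325).

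Among 11 measured activators of Il12 transcription, 6 rose and 1 fell in SDLN under each label. Irf1, an interferon regulatory factor known to act on Il12a, was higher by 2.82 on Cre arrays (SE 0.22; limma adjusted p = 3.53e-07) and 2.87 on control arrays (SE 0.22; limma adjusted p = 3.07e-07). Relb, the NF-kB subunit of the pathway that CD40 engages, was higher by 2.55 and 2.35 (SE 0.24 each), and Irf4, linked to dendritic cell migration, by 1.55 and 1.21 (SE 0.25 each). Rel, the c-Rel subunit known to drive Il12b, was at 0.02 on Cre and -0.08 on control arrays, and Irf8, the cDC1 lineage factor that also acts on Il12b, at -0.36 and -0.07. Neither passed under either label. Of 5 measured repressors, Nfil3 fell by 0.53 on Cre arrays (limma adjusted p = 0.0104) and by 0.62 on control arrays (limma adjusted p = 0.00419). Il10, a cytokine that restrains IL-12, was higher by 0.52 on Cre arrays (limma adjusted p = 0.00788) and at 0.11 on control arrays (limma adjusted p = 0.681), where the difference between labels was not called for any gene. Il10 was dim, with group means of 37.0 to 53.2, so its values are limited by signal.

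Receptors and adaptors that can induce IL-12 changed in both directions. Of 12 measured receptors and adaptors, 3 rose and 5 fell on Cre arrays, and 2 rose and 5 fell on control arrays. Tlr3, the endosomal sensor of double-stranded RNA, was at -4.69 on Cre arrays (SE 0.22; limma adjusted p = 4.82e-09) and -4.57 on control arrays (SE 0.22; limma adjusted p = 6.26e-09). Tlr12, a sensor of Toxoplasma profilin, was at -2.18 and -2.25 (SE 0.27 each), and Ifngr1, the interferon-gamma receptor chain through which IL-12 production is primed, at -3.59 and -3.49 (SE 0.29 each). Tlr7, a sensor of single-stranded RNA, was higher by 0.42 on Cre arrays (limma adjusted p = 0.0355) and at 0.16 on control arrays (0.514). Tlr7 is among the 3 counted as higher on Cre arrays. It averaged 23.2 on SDLN Cre and 20.2 on SDLN control arrays, against 17.4 on spleen Cre and 18.1 on spleen control arrays. Only the SDLN Cre mean lay above background, and only just, so the Tlr7 values are limited by signal. Tlr9, a sensor of CpG DNA, was at -0.37 and -0.09 without passing. Cd40 was higher by 2.41 on Cre arrays (SE 0.40; limma adjusted p = 0.000324) and by 2.21 on control arrays (SE 0.40; limma adjusted p = 0.000684). Of 4 genes that mark the interferon-gamma response to IL-12, the chemokine genes Cxcl9 and Cxcl10 fell, with log2 differences of -2.84 and -1.66 on Cre arrays and -2.90 and -1.82 on control arrays. Of the migratory maturation genes, 13 rose and 2 fell of 16 under each label. Among them were Fscn1, which bundles actin in mature dendritic cells, at 4.55 and 4.42, Socs2 at 4.37 and 4.08, and Il15ra, which presents IL-15, at 4.24 and 4.05 on Cre and control arrays. Both measured relatives of the family fell, Clcf1 with -1.15 under each label and Il6 with -0.67 on Cre and -0.71 on control arrays (limma adjusted p = 0.0391 and 0.0299 for Il6). Il6 was dim, averaging 40.9 on SDLN Cre and 35.1 on SDLN control arrays. In spleen it averaged 65.0 on Cre and 57.6 on control arrays, so its values are limited by signal. From these lists, limma called 0 genes between the genotype labels in either tissue.

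**Figure D5:**
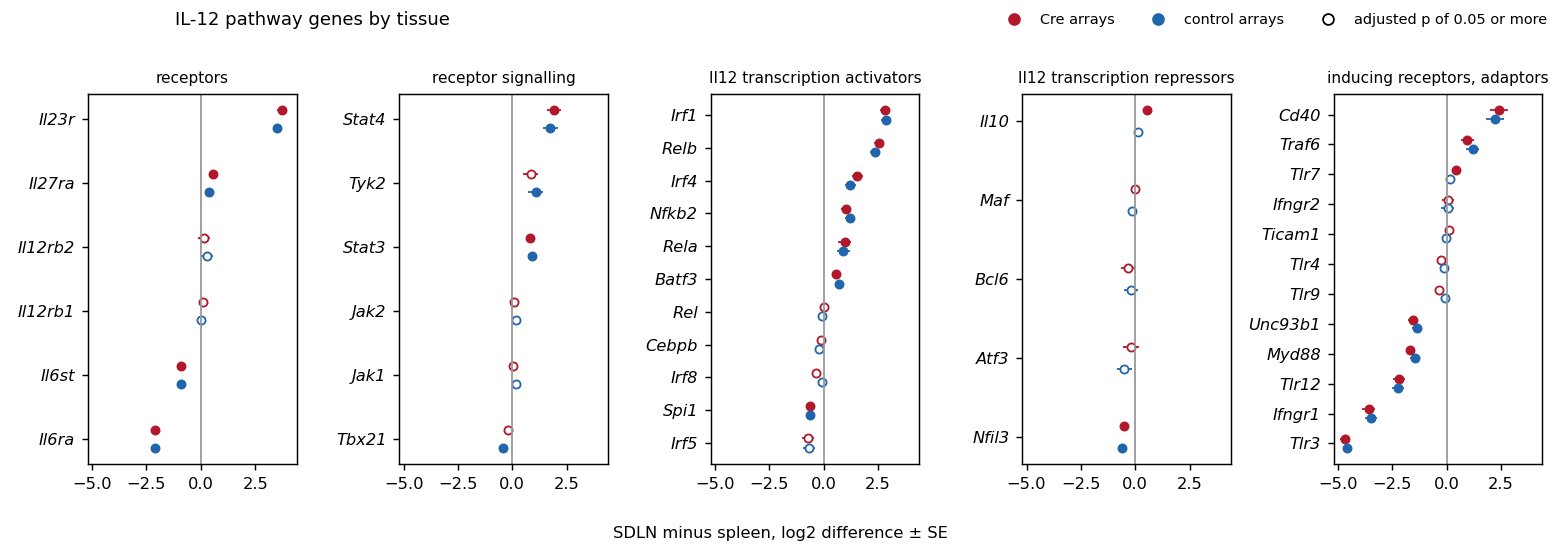
SDLN minus spleen log2 difference with SE for measured pathway genes in 5 lists, on Cre (red) and control (blue) arrays; filled points passed at a limma adjusted p under 0.05. Il23r, Irf1, Relb and Cd40 lie far to the right, and Tlr3, Ifngr1 and Il6ra far to the left, under both labels.

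The subunits were not alike in how they varied from array to array. Over the 12 arrays, the genes most like Il12b in log2 level, out of 17808 above background, were Clip2 (r = 0.967), Afdn (0.964), Nlrc5 (0.962), Wdr48 (0.960) and Mast2 (0.958). For Il27 they were 2210016L21Rik (0.962), Colq (0.960), Uaca (0.959), Tmem220 (0.958) and Pigc (0.956). For Ebi3 they were Tnfaip8l3 (0.894), Cdh4 (0.881), Myzap (0.876), Cnga2 (0.875) and Neu3 (0.874). These correlations share the tissue difference and the replicate numbers and were the highest of many, so they are given as a description. Over the 12 arrays, Il27 and Ebi3, the chains of IL-27, had an r of 0.76, and Il12a and Il12b, the chains of IL-12, 0.43. Il12a and Ebi3, of IL-35, had 0.44, and Il12b and Il23a, of IL-23, -0.06. Among pairs of alpha chains, Il12a and Il27 had 0.68, Il12a and Il23a 0.64 and Il23a and Il27 0.52. After the group means were removed, Il27 and Ebi3 had 0.41, Il12a and Il12b -0.23, Il12a and Ebi3 0.07 and Il12b and Il23a -0.61. In that measure Il23a and Il27 had 0.77 and Il12b and Il27 -0.66. Partner chains were thus not set apart from other pairs. These values still hold the differences between replicate numbers.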

How the data were processed

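The table holds deposited intensities for each probe set on each array. The submitters' processing notes name RMA and Affymetrix Expression Console. Their range and medians show a linear scale, so log2 was taken. The deposited table held 28853 probe sets. The platform annotation listed 23410, of which 21789 carried a single symbol and 1621 several, which were not tested. Symbols were updated by Entrez number for 21698. For 999 genes with several probe sets the brightest was kept, leaving 19938 genes.

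All genes were fitted in limma 3.58.1 (R 4.3.3) with 4 group means over 12 arrays, eBayes with a trend, and two-sided tests, with p-values adjusted by Benjamini-Hochberg over all genes of a comparison, and calls made at 0.05. Groups and replicate numbers came from the sample titles. The number of arrays limits the precision. Same-numbered arrays of different groups had deviations from the group means that correlated at 0.293 to 0.729, against -0.633 to 0.557 (median -0.449) for different numbers, which was read as pairing by number, and a fit with the replicate number as a block is given where it changes a call.

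The members, the gene lists and the naming rule (members, Cd40, for each list the called genes with the largest differences, and the 5 genes most like a member) were chosen with earlier results of these data known. Il27ra, the IL-12 receptor chains, Tyk2, Rel, Irf8, Tlr7 and Tlr9 were named outside that rule, after their values were seen. Promoter windows came from RefSeq for 3 of the 5 members. The script was tested on simulated data. Figures were drawn in matplotlib 3.10.9. Alternatives tried were the block, no trend, array weights, other arrays in the fit, probe set averaging, a filter on dim genes, quantile and median scaling, a pseudocount of 16, and leaving out arrays singly or by number.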

Additional observations from a re-analysis of the deposited data

How the results depend on the processing

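Of 800 recomputed differences for 30 results, 738 kept their direction and side of the threshold, 12 lost a call, 18 gained one and 32 changed sign. Signs changed only for differences that were not called. They changed with array weights or with arrays left out, and under neither scaling, nor with the pseudocount, the filter on dim genes or the probe set mean. With array weights the values were 0.01 for Ebi3 between labels in SDLN, 0.02 for its average, 0.13 for the Il27 difference between tissues of the genotype effect, and 0.04 for Il23a between tissues on Cre arrays. With all arrays of 1 number left out, with or without the replicate block, they were 0.02 and 0 for Il23a and 0.01 for Il27 in spleen, 0.04 and 0.05 for Ebi3 in SDLN and 0.05 and 0.06 for its average, 0.02 for Il23a and 0.14 for Il27 in the difference between tissues, and 0.06 for Il23a between tissues on Cre arrays. With single arrays left out, the range was -0.14 to 0.02 for Il23a in spleen, -0.33 to 0.05 for Il12b and -0.62 to 0.04 for Ebi3 in SDLN, -0.24 to 0.09 for the average of Ebi3, -0.31 to 0.04 for Il27 between tissues of the genotype effect, and -0.13 to 0.04 for Il23a between tissues on Cre arrays.

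Subunits called between tissues on Cre arrays, 2 as reported, were 0 without number 2 and 1 without number 3. On control arrays they were 4 with array weights, 1 without number 2 and 1 to 3 without single arrays. Array weights called 51 genes between labels in spleen, 2 in SDLN and 3 for the difference between tissues, where 0 were called otherwise, except 1 in SDLN with the block and without number 3. Between tissues, genes called on Cre arrays (5648 as reported) were 8933 with array weights, 3081 without number 2 and 3094 without number 3, and on control arrays (5207) they were 9020, 3093 and 2865. The causes were not tested. The replicate block changed 1 call of a subunit, Il12b between tissues on control arrays. The block with a number left out was chosen after the data were seen. The average and the difference between tissues have no value from only the arrays compared, since they use all 12. Il12a and Il23a, between 28.0 and 53.2 against a background of 22.2, are limited by signal.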

Other observations

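Besides Ebi3 and Cd40, 8 genes shared the pattern of SDLN pairs in which the Cre array was lower by over 0.5 on the log2 scale in pairs 1 and 2 and higher by over 0.5 in pair 3, and all were named after their values were seen. Csf1, the growth factor M-CSF, had ratios of 0.269, 0.4 and 2.85. Ptgs2, the inducible cyclooxygenase, had 0.554, 0.404 and 1.63. Cd70, the ligand of CD27 on T cells, had 0.536, 0.619 and 1.45. Hcls1 had 0.643, 0.706 and 1.55, and Layn, Nphs1, Calm5 and St6galnac2 completed the set, with pair 3 ratios of 1.42 to 1.67. In spleen the same rule found 1 gene, Cd40.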
